A study of Mus musculus with 24 samples.

Results

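The comparison described here set Sox3 conditional knockout (cKO) against wild-type (WT) spermatogonia in the libraries that carried the markers of THY1+ undifferentiated spermatogonia (uSPG). It held 6 of the 24 RNA-seq libraries of the series, 3 labelled cKO THY1+ and 3 labelled WT KIT+. The 6 libraries were chosen by their levels of Thy1 and Kit, because the label and the markers of the WT side disagreed. The cells came from testes of mice at postnatal day 7 on a C57BL/6J background, and the testes of 3 mice were pooled for each isolation. Immunomagnetic sorting with antibodies against THY1 and KIT was used to take uSPG and KIT+ differentiating spermatogonia (dSPG). Sox3-cKO mice carried a floxed Sox3 allele and Ddx4-Cre, which acts in germ cells, so that somatic cells in a sorted fraction were not targeted. WT controls were littermates.

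SOX3 is an X-linked transcription factor of the SRY-related HMG-box family, closely related to SOX1 and SOX2. In the postnatal testis it is made in uSPG, mainly in the progenitor cells that have left the stem-cell state and are about to differentiate. These progenitors also express Neurog3, a basic helix-loop-helix (bHLH) factor, and Lin28a, an RNA-binding protein, whereas stem-state uSPG express Gfra1, Ret, Id4 and Etv5. Retinoic acid then drives the step to KIT+ dSPG. The question was which genes depend on SOX3 in uSPG.

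The labels of the WT libraries went against their markers, and this comes before every result. Levels are given in FPKM (read fragments scaled to the length of the transcript and to the depth of the library) for replicates 1, 2 and 3 in that order. The WT libraries labelled KIT+ held Thy1 at 3.84, 3.59 and 4.06 FPKM, and it stood at 5.002, 3.61 and 5.26 FPKM on the cKO side. The mean of Thy1 was 0.240 FPKM in WT labelled THY1+. Kit stood at 12.97, 14.04 and 18.8 FPKM in WT labelled KIT+ and at 15.5, 14.2 and 17.1 FPKM in cKO labelled THY1+, against a mean of 57.9 FPKM in WT labelled THY1+. In the separate Zbtb16 experiment of the same series, WT THY1+ uSPG held 3.29 to 4.41 FPKM of Thy1 and 13.8 to 21.1 FPKM of Kit, and WT KIT+ dSPG held 0.156 to 0.524 FPKM of Thy1 and 52.5 to 69.7 FPKM of Kit. The WT libraries labelled KIT+ were within that range of THY1+ uSPG for Thy1, and for Kit replicates 2 and 3 were within it and replicate 1 lay just below. Since Thy1 and Kit chose the pair, no test was applied to them. Across 21099 genes the correlation of log2 values (Pearson's r, a description, since genes are not independent) of these WT libraries was 0.973 to 0.979 with the WT THY1+ libraries of the Zbtb16 experiment and 0.907 to 0.924 with its WT KIT+ libraries. The libraries were not relabelled, and the text calls them WT labelled KIT+ and cKO labelled THY1+ throughout. Every direction below rests on the reading that both groups carried THY1+ markers.

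**Figure D1:**
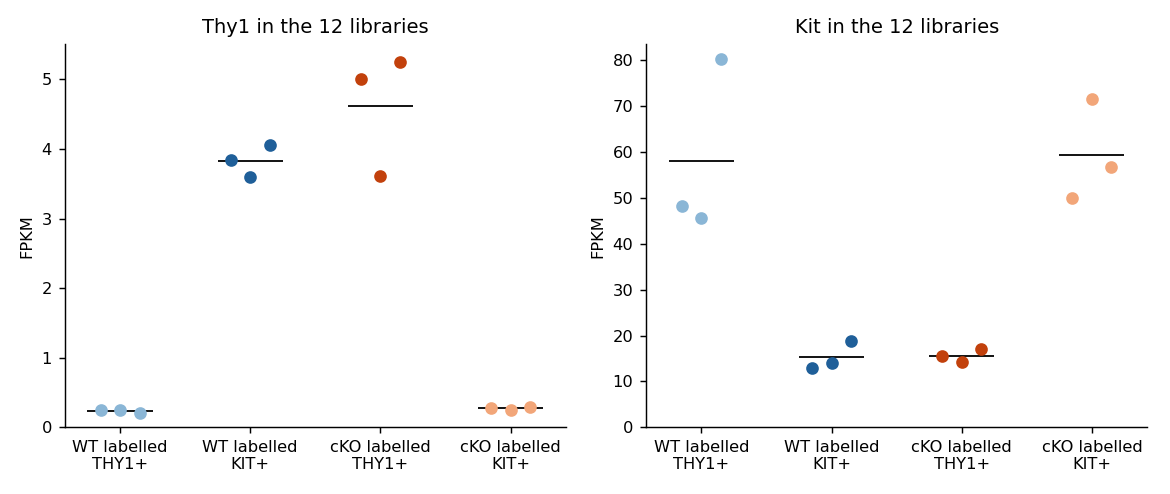
Thy1 (left) and Kit (right) in FPKM in the 12 libraries of the Sox3 experiment, with 1 point per library (replicates 1 to 3 from left to right), and the group mean as a line. The WT libraries labelled KIT+ and the cKO libraries labelled THY1+ share high Thy1 and low Kit, while the WT libraries labelled THY1+ have a mean of 0.240 FPKM of Thy1.

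An estimated 30.6, 14.9 and 14.04 M reads lay behind the WT libraries labelled KIT+ and 29.5, 11.0 and 11.2 M behind the cKO libraries labelled THY1+, so that replicates 2 and 3 were less deeply sequenced in both groups. Each library had 15747 to 16401 genes at 1 FPKM or more. Macrophage genes were abundant on both sides. The 13 genes of a macrophage list that were tested summed to 1323 to 1677 FPKM in WT and 1346 to 1511 FPKM in cKO libraries, and none of them was a call. In bulk RNA, fewer cells of a type and less RNA per cell cannot be told apart.

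Few genes passed the test between genotypes, and nearly all of them were lower in the cKO. Of 21212 genes tested, 15 (0.0707%) were calls, with an adjusted p of at most 0.05 in limma and at least 1.5-fold between the groups. The 14 genes that fell (0.066%) were Sox3, Neurog3, Cthrc1, Fbxo40, Gm2832, Lmo1, Hoxb13, Mobp, Ly6g6e, H2-Q2, Gm9785, Zcchc12, Mageb8-ps and Igfbp2, and the 1 gene that rose (0.00471%) was AU015336. The study's own test (DESeq2) in THY1+ uSPG called more genes, with more of them higher than lower. An unadjusted p under 0.05 was found here for 2793 genes, 1824 of them lower and 969 higher in the cKO. The WT and cKO libraries with the same replicate number deviated together weakly (r of 0.125 to 0.268 across genes). With the replicate number as a block, 29 genes (0.137%) were calls, 28 lower and 1 higher, with all 15 among them. The median standard error of a log2 fold change was 0.21, and the median log2 fold change of all genes was 0.01. Groups did not overlap, with every cKO library below every WT library, for 2542 genes (12%), and with every cKO library above for 1610 (7.59%).

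The number of calls depended on single libraries and on the libraries that shared the estimate of spread. Leaving out 1 of the 6 libraries gave 5 calls (without WT labelled KIT+ replicate 1 or 2, or without cKO labelled THY1+ replicate 2), 7 calls (without WT replicate 3 or cKO replicate 1) or 9 calls (without cKO replicate 3). Sox3, Neurog3, AU015336, Fbxo40 and Gm9785 were calls in all 6 of these fits, Lmo1 in 2 and Cthrc1 in 1, and the other 8 genes in none. No call changed its direction in any alternative. A fit on the 6 libraries alone, with fewer libraries to estimate the spread, left 1 call, Sox3, with adjusted p of 0.0528 for Fbxo40, 0.0528 for AU015336, 0.0584 for Gm9785 and 0.0588 for Neurog3.

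**Figure D2:**
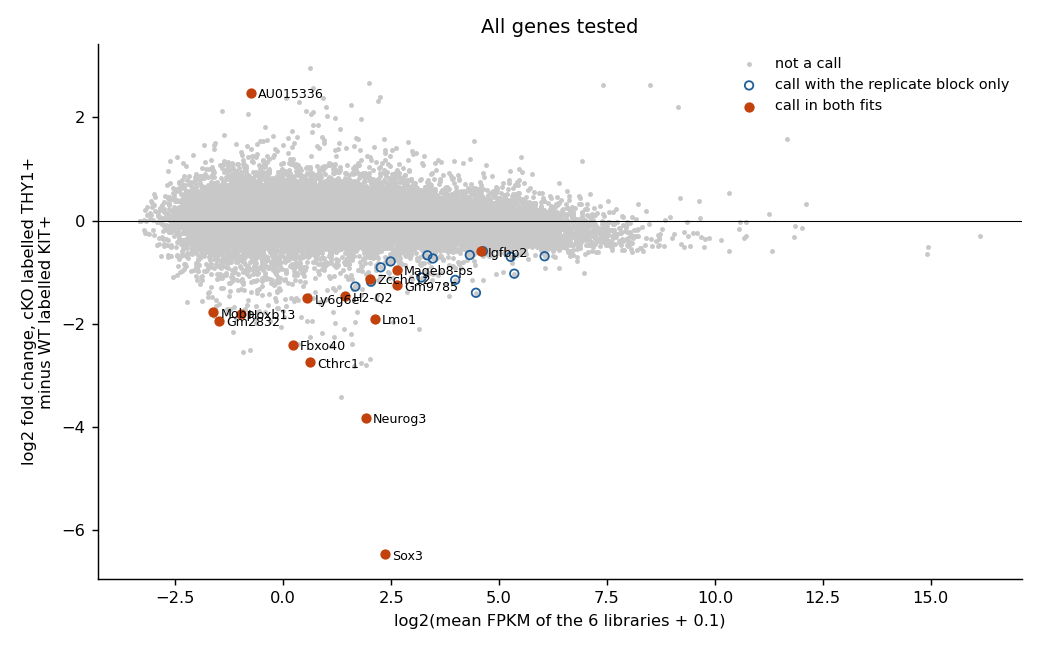
Log2 fold change (cKO labelled THY1+ minus WT labelled KIT+, y axis) of all 21212 genes tested against log2 of their mean FPKM plus 0.1 (x axis), with the 15 calls in orange and the 14 genes called with the replicate block alone as open circles. Of the 29 marked genes 28 lie below 0 and AU015336 lies above.

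The targeted gene was nearly absent from the cKO libraries. Sox3 (ENSMUSG00000045179, chromosome X, 60891366 to 60893430 of GRCm38, minus strand) was at 8.63, 9.53 and 11.7 FPKM in WT and at 0, 0 and 0.0434 FPKM in cKO. These values stand for an estimated 546, 293 and 340 reads in WT and for 0, 0 and 1 read in cKO libraries. From the pooled reads the level was 1023-fold lower in the cKO, with an exact 95% interval of 183-fold to 40450-fold that covers counting error only. The log2 fold change on the log2(FPKM + 0.1) scale was -6.47 (SE 0.42, adjusted p 0.00012). The 5 genes tested within 250000 bases of Sox3 had a median log2 fold change of 0.22, and none was a call.

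Neurog3, the bHLH factor of progenitor uSPG, fell most after Sox3. The study named Neurog3 as lower in Sox3-deficient THY1+ uSPG of the same experiment, so its fall here is not independent evidence. Whether its WT side was the libraries labelled THY1+ or those labelled KIT+ cannot be told from the study's text. Neurog3 (ENSMUSG00000044312, chromosome 10, 62133090 to 62134763, plus strand) was at 6.11, 8.62 and 5.92 FPKM in WT and at 0.418, 0.707 and 0.174 FPKM in cKO libraries. Every cKO library was below 1 FPKM and every WT library above 5 FPKM. The log2 fold change was -3.82 (SE 0.38, 95% interval -4.66 to -2.99, adjusted p 0.0026), and it stayed between -4.19 and -3.41 when any 1 library was left out. The gene 2010107G23Rik, which overlaps Neurog3, was at 11.2, 12.2 and 8.904 FPKM in WT and 5.77, 6.55 and 6.45 FPKM in cKO libraries (log2 fold change -0.77, adjusted p 0.0859) and was no call. The strand used in counting is not given in the sources used here, so reads of overlapping genes cannot be told apart.

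Promoter sequences are shown of the calls Neurog3 and Fbxo40 and of Lin28a, which was a call only with the replicate block. SOX factors bind short AT-rich cores, of which ACAAAG and ACAATG were searched on both strands. Each sequence is 1 window from 250 bases before to 50 bases after a RefSeq transcript start (GRCm38.p6), 5′ to 3′ on the strand of the gene, with the matched letters in capitals. They are Neurog3 (chr10:62132840-62133139, plus strand), Fbxo40 (chr16:36990418-36990717, minus strand, 1 of 2 listed starts) and Lin28a (chr4:134018767-134019066, minus strand). The window of the other Fbxo40 start (chr16:36979087-36979386) held neither core and is not printed.
Neurog3: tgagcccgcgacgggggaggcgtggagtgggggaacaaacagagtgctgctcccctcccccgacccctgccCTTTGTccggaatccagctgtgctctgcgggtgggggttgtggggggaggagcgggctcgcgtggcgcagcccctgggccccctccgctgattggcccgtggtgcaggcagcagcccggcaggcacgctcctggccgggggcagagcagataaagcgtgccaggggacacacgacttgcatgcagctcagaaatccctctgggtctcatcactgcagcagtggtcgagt
Fbxo40: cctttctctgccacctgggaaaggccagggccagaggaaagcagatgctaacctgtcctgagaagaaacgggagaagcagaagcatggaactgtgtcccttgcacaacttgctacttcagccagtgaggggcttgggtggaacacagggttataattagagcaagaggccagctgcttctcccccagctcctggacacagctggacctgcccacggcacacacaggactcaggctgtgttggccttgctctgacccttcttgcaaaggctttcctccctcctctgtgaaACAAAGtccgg
Lin28a: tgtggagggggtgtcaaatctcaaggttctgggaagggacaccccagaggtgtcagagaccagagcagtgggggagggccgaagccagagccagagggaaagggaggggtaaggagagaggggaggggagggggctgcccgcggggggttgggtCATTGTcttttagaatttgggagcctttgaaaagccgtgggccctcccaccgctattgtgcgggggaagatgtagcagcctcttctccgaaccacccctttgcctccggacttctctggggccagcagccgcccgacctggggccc
The Neurog3 window held CTTTGT, which is ACAAAG on the opposite strand, the Fbxo40 window held ACAAAG, and the Lin28a window held CATTGT, which is ACAATG on the opposite strand. Of 32817 windows of this length, 18.7% held ACAAAG, 12.6% held ACAATG and 28.6% held either. Of the 15 calls, 8 had a window and 4 of these held either core (Neurog3, Fbxo40, Gm2832 and Mobp, the last with 6 matches of ACAAAG). The Gm2832 window (chr14:41264420-41264719) does not reach the gene model measured here, which starts at 41278805 on the plus strand. It may not be the promoter of that model. No match was found in the windows of Lmo1, H2-Q2, Igfbp2 and Zcchc12. Among the genes added by the blocked fit described further on, Lrrc28, l7Rn6, Narfl, Mgmt, Tmem18 and Gm27265 were not searched. Of the others, Lin28a held a core, Nip7, Polr1c and Six4 had no match, and the rest had no window. A match is a description of the letters and not of binding.

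Among the other transcription regulators, Lmo1 and Hoxb13 fell. Lmo1 (ENSMUSG00000036111, chromosome 7, 109138572 to 109175207), a LIM-only cofactor that bridges DNA-binding proteins, was at 8.05, 7.26 and 4.98 FPKM in WT and 1.65, 1.27 and 2.34 FPKM in cKO libraries. The groups did not overlap, and the log2 fold change was -1.90 (SE 0.23, adjusted p 0.0104). It was no call without WT replicate 1 (-1.76, adjusted p 0.0659), WT replicate 2 (-1.84), cKO replicate 1 (-1.88) or cKO replicate 2 (-1.71). Hoxb13, a homeobox factor, was low throughout, at 0.577, 0.577 and 0.903 FPKM in WT and 0.123, 0.165 and 0.0811 FPKM in cKO libraries. Its cKO values stand for 8, 4 and 2 reads, the log2 fold change was -1.81 (adjusted p 0.0253), and it was singled out after its values were seen.

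Among secreted proteins, Cthrc1 and Igfbp2 fell. Cthrc1 (ENSMUSG00000054196, chromosome 15, 39076932 to 39087121), a secreted glycoprotein with a collagen triple helix repeat, was at 2.71, 2.63 and 2.26 FPKM in WT and 0.229, 0.184 and 0.544 FPKM in cKO libraries. Its log2 fold change was -2.74 (SE 0.35, adjusted p 0.0148). It remained a call only without cKO replicate 3, the cKO library with the highest Cthrc1, and was between -3.10 and -2.51 in the 6 fits that left out 1 library. Igfbp2, which binds insulin-like growth factors, was at 27.6, 30.4 and 28.1 FPKM in WT and 18.7, 19.2 and 19.0 FPKM in cKO libraries. The libraries within each group lay close together, and the log2 fold change of -0.59 (SE 0.09, adjusted p 0.0400) was just past the limit of 1.5-fold. With each library scaled to its upper quartile Igfbp2 fell short of that limit (-0.57), and it was no call when any 1 library was left out (-0.62 to -0.55).

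Fbxo40 (ENSMUSG00000047746, chromosome 16, 36963460 to 36990467), an F-box protein known as the substrate receptor of a ubiquitin ligase in muscle, was at 1.59, 2.04 and 1.92 FPKM in WT and 0.320, 0.214 and 0.276 FPKM in cKO libraries. The log2 fold change was -2.40 (SE 0.20, adjusted p 0.000905), and it lay between -2.50 and -2.29 when any 1 library was left out. Zcchc12, a zinc-finger protein encoded on chromosome X, was at 6.11, 5.41 and 4.87 FPKM in WT and 2.60, 2.23 and 2.47 FPKM in cKO libraries. Its log2 fold change was -1.13 (SE 0.17, adjusted p 0.0367).

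Both called genes of the major histocompatibility region on chromosome 17 fell while genes between them did not pass the test. Ly6g6e, a membrane-anchored protein of the Ly6 family, was at 1.95, 2.32 and 1.96 FPKM in WT and 0.666, 0.784 and 0.562 FPKM in cKO libraries (log2 fold change -1.50, SE 0.23, adjusted p 0.0404). H2-Q2, a class I histocompatibility gene, was at 3.61, 4.30 and 3.72 FPKM in WT and 1.17, 1.58 and 1.31 FPKM in cKO libraries (-1.46, SE 0.20, adjusted p 0.0231). From Ly6g6e to H2-Q2, 27 genes were tested, with a median log2 fold change of -0.09 and these 2 calls. H2-D1, another class I gene tested in this stretch, was at 40.8, 50.5 and 41.4 FPKM in WT and 42.8, 44.2 and 39.9 FPKM in cKO libraries (-0.06, adjusted p 0.865). Ly6g6d, which overlaps Ly6g6e, was at 0.9749, 0.744 and 1.09 FPKM in WT and 0.492, 0.465 and 0.381 FPKM in cKO libraries (-0.92, adjusted p 0.234). Reads of class I genes can be shared between near-identical copies, so the value of H2-Q2 is uncertain.

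Chromosome X held 4 of the 15 calls (26.7%) and 902 of all genes tested (4.25%). Besides Sox3 and Zcchc12 these were 2 pseudogenes, singled out after their values were seen. Gm9785, a transcribed processed pseudogene, was at 8.78, 9.18 and 7.92 FPKM in WT and 3.84, 3.58 and 3.26 FPKM in cKO libraries (log2 fold change -1.25, SE 0.13, adjusted p 0.00277). Mageb8-ps was at 8.44, 7.92 and 7.78 FPKM in WT and 4.17, 3.95 and 4.24 FPKM in cKO libraries (-0.95, SE 0.12, adjusted p 0.0148). Mageb8-ps is 1 of 6 tested genes in a cluster of melanoma-antigen (Mageb) genes and pseudogenes from 86250254 to 86399244 on chromosome X, and 5 of the 6 were lower in every cKO library than in every WT library, as were 12% of all genes. Mageb10-ps was at 37.8, 30.4 and 26.6 FPKM in WT and 17.6, 9.74 and 9.60 FPKM in cKO libraries (-1.40, adjusted p 0.181, 0.0251 with the replicate block). Mageb7-ps had a log2 fold change of -1.10 (adjusted p 0.0896, 0.0273 with the block), Gm41 of -0.83 (0.0651) and Mageb6-ps of -0.52 (0.373), whereas Mageb4, whose annotated span overlaps Mageb10-ps, was at -0.23 with overlapping groups. These copies resemble each other and a read could be placed at several of them, so they are not independent and their single values are uncertain.

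Of the other calls, 3 rested on few reads and were singled out after their values were seen. Gm2832 was at an estimated 19, 15 and 12 reads in WT and 2, 1 and 1 reads in cKO libraries (log2 fold change -1.94, adjusted p 0.0210). Mobp, a myelin protein gene, was at 73, 42 and 43 reads in WT and 12, 3 and 3 reads in cKO libraries (-1.77, adjusted p 0.0148). AU015336, a transcript annotated inside an intron of Leprel1 and on its strand, was the only call that rose. It was at 0.0769, 0.0790 and 0.0838 FPKM in WT, which stands for 2, 1 and 1 reads, and at 0.799, 0.962 and 0.948 FPKM or 20, 9 and 9 reads in cKO libraries (2.48, SE 0.23, adjusted p 0.00171). Its host Leprel1, a collagen prolyl hydroxylase, was at 0.886, 0.739 and 0.631 FPKM in WT and 1.63, 1.76 and 1.201 FPKM in cKO libraries (0.93, adjusted p 0.234). Both transcripts were higher in every cKO library, and reads of the host's unspliced RNA cannot be told apart from those of AU015336.

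**Figure D3:**
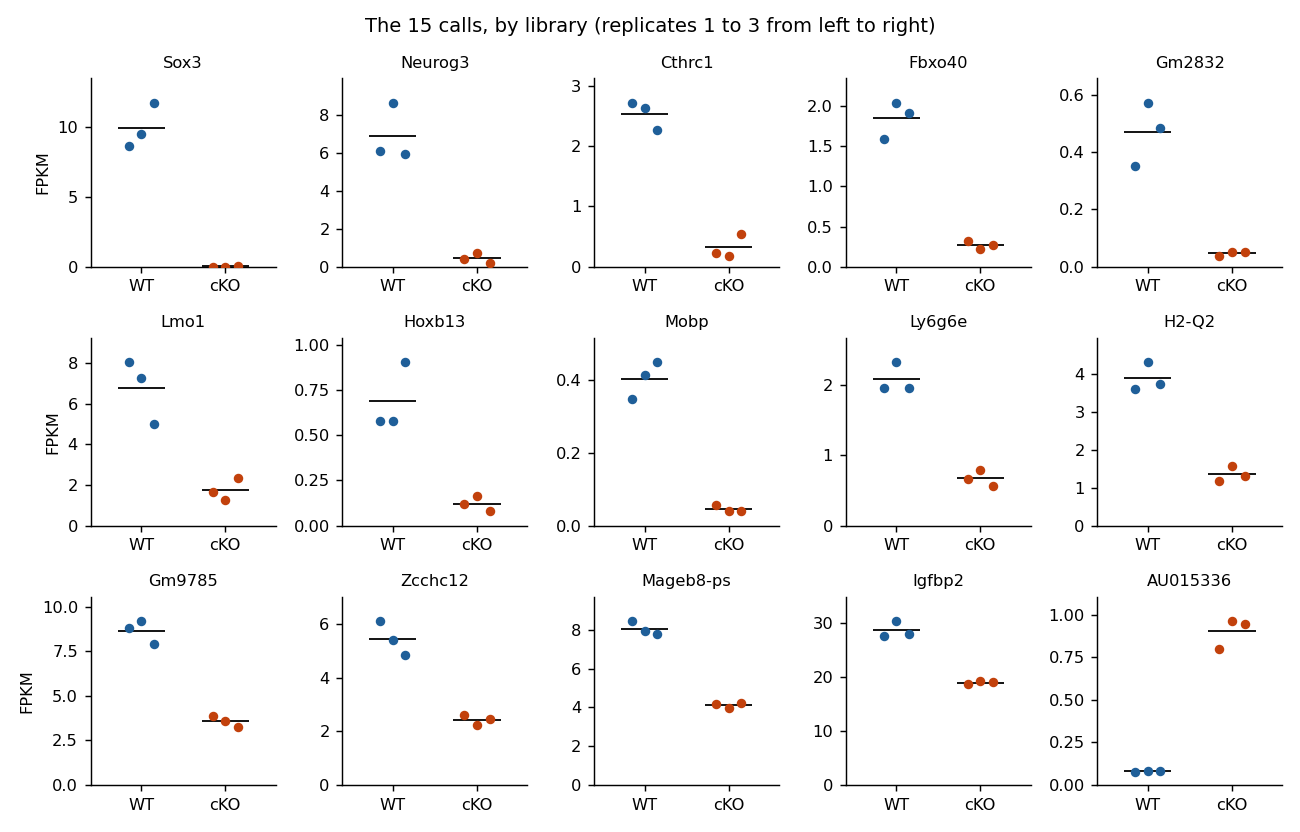
FPKM (y axis, from 0) of the 15 calls in the 3 WT libraries labelled KIT+ (blue) and the 3 cKO libraries labelled THY1+ (orange), with replicates 1 to 3 from left to right and the mean as a line. The groups do not overlap for any of the 15 genes, and AU015336 alone is higher in the cKO.

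With the replicate number as a block, 14 further genes fell, all of them with adjusted p between 0.0251 and 0.0483. Lin28a, the RNA-binding protein of progenitor uSPG, was at 47.2, 55.7 and 61.3 FPKM in WT and 24.5, 28.8 and 26.8 FPKM in cKO libraries. The groups did not overlap, and the log2 fold change of -1.03 (SE 0.18) had an adjusted p of 0.0310 with the block and 0.0854 without it. The study named Lin28a as lower in Sox3-deficient uSPG of the same experiment too, so this is not independent evidence. Gm13061, which overlaps the start of Lin28a, was at 7.92, 8.28 and 5.89 FPKM in WT and 3.52, 2.87 and 3.64 FPKM in cKO libraries (-1.11, adjusted p 0.154). Of the other 13, 2 are transcription factors. Foxf1, a forkhead factor, was at 19.3, 24.3 and 21.5 FPKM in WT and 10.1, 9.66 and 9.40 FPKM in cKO libraries (-1.15, adjusted p 0.0464 with the block and 0.0633 without). Six4, a homeobox factor, was at 5.03, 4.78 and 6.82 FPKM in WT and 3.03, 1.6 and 2.68 FPKM in cKO libraries (-1.18, 0.0483 and 0.181). Podxl, a surface sialomucin, had a log2 fold change of -0.90 (0.0266 and 0.181). Nip7, a ribosome biogenesis factor, and Polr1c, a subunit of RNA polymerases I and III, were among the more abundant, with means of 47.8 ± 8.001 and 82.0 ± 10.1 FPKM (SD, n = 3) in WT and 29.2 ± 3.07 and 50.6 ± 3.65 FPKM in cKO libraries. The remaining genes were Mageb10-ps, Mageb7-ps, Gm27265, Lrrc28, l7Rn6, Narfl, Mgmt and Tmem18, with log2 fold changes from -1.40 to -0.59.

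The libraries that carried KIT+ markers were cKO labelled KIT+ and WT labelled THY1+. This pair shares no library with the comparison and gave a second view of the same genes. The study purified both fractions from the cells of pooled testes, so the 2 pairs may come from the same mice. Both also share 1 estimate of the spread, so the second view is not an independent replication. In the pair with KIT+ markers 3608 genes (17%) were calls, 970 lower and 2638 higher in the cKO. Of the 15 genes, 13 were calls in the same direction in that pair, and the exceptions were Ly6g6e and Igfbp2. Sox3 had a log2 fold change of -6.34 there, Neurog3 of -3.90, Cthrc1 of -1.88, Fbxo40 of -1.66 and Lmo1 of -2.24. Of the 14 genes added by the block, 8 were calls and lower in that pair, among them Lin28a (-1.40) and Polr1c (-0.73).

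Whether a gene changed differently in the THY1+ than in the KIT+ marker pair was tested directly, and 0 genes were calls for the difference in limma, with 2709 at an unadjusted p under 0.05. The difference for Neurog3 was 0.08 (95% interval -1.10 to 1.26), for Lmo1 0.33 (-0.37 to 1.03) and for Lin28a 0.37 (-0.18 to 0.92). Of the 15 calls, Fbxo40 (-0.75, -1.38 to -0.12), Gm2832 (-1.0, -1.80 to -0.19), Ly6g6e (-1.07, -1.76 to -0.37), Igfbp2 (-0.32, -0.59 to -0.05) and AU015336 (1.56, 0.84 to 2.27) had intervals that left out 0, with adjusted p of 0.317, 0.303, 0.230, 0.324 and 0.166. Without WT labelled THY1+ replicate 1 there were 19 calls for the difference, and Dppa3 was 1 call with a pseudocount of 1 FPKM and 1 without cKO labelled THY1+ replicate 1. With a pseudocount of 0.01 FPKM, Gm14808, Trbc2 and Xcl1 were calls for the difference. Dppa3, a maternal-effect and germ-cell gene, was at 0.329, 0.451 and 0.479 FPKM in WT labelled KIT+ and 0, 0.204 and 0.201 FPKM in cKO labelled THY1+ libraries, against 2.004, 2.22 and 2.24 FPKM in WT labelled THY1+ and 0 in all cKO labelled KIT+ libraries.

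**Figure D4:**
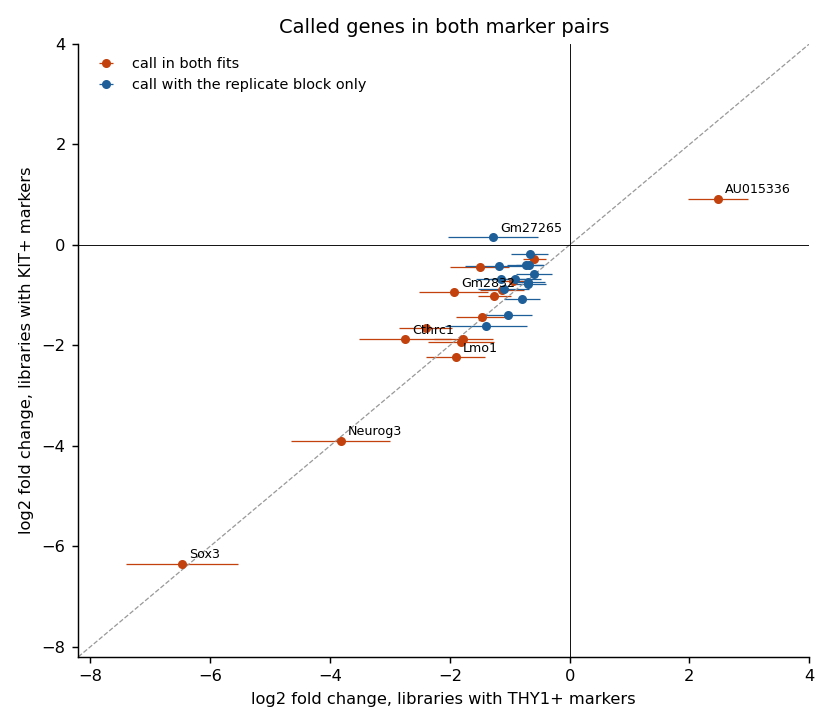
Log2 fold change of the 29 called genes in the libraries with THY1+ markers (x axis, bars are 95% intervals) against that in the libraries with KIT+ markers (y axis), with equality as a dashed line. Sox3 (-6.47 and -6.34) and Neurog3 (-3.82 and -3.90) lie close to the line, and Gm27265 alone changes sign.

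Because the WT labels are in doubt, the cKO libraries labelled THY1+ were also set beside all 6 WT libraries. Of the 15 calls, 11 were below all 6 WT libraries and AU015336 was above all 6. All genes tested gave 7.41% below and 4.7% above, but the called genes already lay outside the 3 WT libraries labelled KIT+. Of the 2542 genes below those 3 WT libraries, 1572 were below all 6. Of the 1610 genes above them, 996 were above all 6. These shares, and not those of all genes, are the measure for the called genes. Neurog3 was at 4.68 to 6.54 FPKM, Lmo1 at 25.9 to 28.3 FPKM and Fbxo40 at 0.932 to 1.07 FPKM in the WT libraries labelled THY1+. The 3 calls that overlapped the 6 WT libraries were Ly6g6e, Gm9785 and Zcchc12. Of the 14 genes added by the block, 10 were below all 6, and Lin28a, Foxf1, Six4 and Mageb7-ps overlapped them. Lin28a was at 25.2 to 36.1 FPKM and Foxf1 at 3.23 to 5.33 FPKM in the WT libraries labelled THY1+. Against the WT libraries labelled THY1+ alone, every cKO library was higher for Ly6g6e, Foxf1 and Six4. For Gm9785, Zcchc12, Lin28a and Mageb7-ps the groups overlapped, with a lower cKO mean for Gm9785 and Lin28a only. The direction of Ly6g6e, Foxf1, Six4, Zcchc12 and Mageb7-ps therefore rests on the reading of the labels. For Gm9785 and Lin28a the size of the fall rests on it.

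Of 7 progenitor genes 2 were calls, Neurog3 and the deleted gene Sox3 itself, and genes of the stem state gave no call. All 7 progenitor genes tested had a log2 fold change below 0, with a median of -0.70 beside 0.01 for all genes tested. This count and median include Sox3, whose fall was set by the deletion. They also include Neurog3 and Lin28a, which the study named from the same experiment. Lin28a was a call with the block. Sohlh1, a bHLH factor of early differentiation, was at 87.2, 103 and 74.1 FPKM in WT and 56.7, 72.0 and 64.2 FPKM in cKO libraries (-0.45, adjusted p 0.290), without overlap. Upp1 (-0.70), Nanos3 (-0.38) and Rarg (-0.22) overlapped. Of 26 stem-state genes 0 were calls, 16 were above and 10 below 0, the median was 0.20, and 5 had an unadjusted p under 0.05. Gfra1, the GDNF co-receptor, was at 31.1, 30.6 and 37.5 FPKM in WT and 43.3, 33.4 and 43.0 FPKM in cKO libraries (0.27, adjusted p 0.642). Zbtb16 (-0.08), Id4 (-0.16), Etv5 (0.32) and Ret (0.52) also overlapped. Pax7, which marks rare stem cells, was at 0.635, 0.686 and 0.814 FPKM in WT and 1.25, 1.13 and 1.47 FPKM in cKO libraries (0.77, adjusted p 0.291), and Tspan8, a stem-cell surface marker, at 8.09, 8.54 and 6.31 FPKM in WT and 5.28, 3.52 and 4.82 FPKM in cKO libraries (-0.75, adjusted p 0.291).

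Genes of later germ cells gave no calls. Of 8 genes of differentiating spermatogonia 6 were below 0, with a median of -0.31 and 3 at an unadjusted p under 0.05. Stra8, which retinoic acid induces, was at 69.0, 69.2 and 55.5 FPKM in WT and 44.1, 50.5 and 44.6 FPKM in cKO libraries (-0.47, adjusted p 0.276), and Rhox13 had a log2 fold change of -0.50 (adjusted p 0.276). Of 20 meiosis genes 16 were below 0, with a median of -0.23, and 7 (35%) did not overlap, all lower, beside 12% of all genes. Lower without overlap were also 3 of the 8 genes of differentiating spermatogonia (37.5%) and 6 of 15 genes of all germ cells (40%). Sycp3, a component of the synaptonemal complex, was at 119, 96.5 and 101 FPKM in WT and 70.5, 77.9 and 73.9 FPKM in cKO libraries (-0.50, adjusted p 0.276). Of 15 genes of all germ cells 13 were below 0 (median -0.19), and Ddx4, whose promoter drives the Cre, was at 209, 204 and 215 FPKM in WT and 184, 172 and 195 FPKM in cKO libraries (-0.19, adjusted p 0.433). Of 24 cell-cycle genes 0 were calls, with a median of -0.05.

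The relatives and partners of SOX3 and Neurog3 gave no calls. Of 14 other SOX genes tested the median was 0.01, and 0 had an unadjusted p under 0.05. Sox2, the closest relative that was tested, was at 0.345, 0.409 and 0.521 FPKM in WT and 0.317, 0.148 and 0.400 FPKM in cKO libraries, and Sox4, the most abundant, at 35.5, 34.7 and 42.0 FPKM in WT and 40.0, 38.8 and 40.6 FPKM in cKO libraries. Of 15 bHLH and Notch genes tested, 7 had an unadjusted p under 0.05, beside 2793 of all 21212 genes. In every cKO against every WT library 3 (20%) were lower and 5 (33.3%) higher, beside 12% and 7.59% of all genes, and the share of lower genes was near that of all genes. The Notch ligand Dll1 (-1.10, adjusted p 0.295) and the Notch target Hes5 (-0.83, adjusted p 0.257) were lower in every cKO library, and the receptor Notch2 was higher in every cKO library (0.60, adjusted p 0.375). Of 20 genes of the retinoic acid pathway the median was -0.08. The retinoic acid binding protein Crabp1 was at 83.9, 67.2 and 58.1 FPKM in WT and 42.1, 42.2 and 46.0 FPKM in cKO libraries (-0.67, adjusted p 0.192), and the receptor Rxrg was at 1.12, 0.730 and 0.806 FPKM in WT and 0.428, 0.158 and 0.389 FPKM in cKO libraries (-1.26, adjusted p 0.276). Of 11 pluripotency-linked genes the median was -0.03. Zfp42 was at 7.20, 7.15 and 6.84 FPKM in WT and 5.10, 4.64 and 4.22 FPKM in cKO libraries (-0.59, adjusted p 0.236).

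Adhesion and migration genes had higher values in the cKO without a call, and 1 cKO library stood highest. Of 28 genes 27 were above 0, the median log2 fold change was 0.56, and 12 (42.9%) were higher in every cKO than in every WT library, beside 7.59% of all genes. Lama2, a laminin chain of basement membranes, was at 27.1, 37.2 and 26.3 FPKM in WT and 54.3, 92.2 and 38.1 FPKM in cKO libraries (0.95, adjusted p 0.253), and Col4a2, a collagen IV chain, at 15.9, 16.5 and 16.99 FPKM in WT and 25.7, 46.8 and 26.0 FPKM in cKO libraries (0.93, adjusted p 0.291). Replicate 2 was the highest of the cKO libraries for both. Without cKO labelled THY1+ replicate 2 the median of the list was 0.35, with 24 of 28 above 0 and 0 calls.

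Cyp26b1 and Col15a1, which the study reports as higher in Sox3-deficient uSPG by its own test (DESeq2), were highest in the same library. Cyp26b1, which breaks down retinoic acid, was at 7.20, 9.30 and 9.63 FPKM in WT and 13.9, 38.0 and 13.8 FPKM in cKO libraries. Col15a1, a basement membrane collagen, was at 3.62, 5.74 and 5.80 FPKM in WT and 7.98, 25.1 and 8.49 FPKM in cKO libraries. The groups did not overlap, but neither was a call, with log2 fold changes of 1.16 (SE 0.39, adjusted p 0.291, 0.195 with the block) and 1.26 (SE 0.41, 0.279 and 0.168). Without cKO replicate 2 they were 0.68 and 0.72. Like Neurog3 and Lin28a, Cyp26b1 and Col15a1 were named from the same experiment, so they are not independent evidence. In the pair with KIT+ markers Cyp26b1 and Col15a1 were calls, with log2 fold changes of 1.46 and 1.31.

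The summed stromal, endothelial and Sertoli cell markers were highest in cKO replicate 2, and those of Leydig cells, macrophages and T cells were not. The 12 peritubular and stromal genes summed to 548, 604 and 345 FPKM in WT and 617, 1035 and 466 FPKM in cKO libraries, with a median log2 fold change of 0.23, or 0.09 without cKO replicate 2. Col1a1 was at 20.8, 30.8 and 31.7 FPKM in WT and 34.6, 95.8 and 49.4 FPKM in cKO libraries (1.0, adjusted p 0.414). The 8 endothelial genes summed to 18.6, 22.1 and 20.9 FPKM in WT and 27.4, 44.4 and 28.1 FPKM in cKO libraries, and Cdh5 was at 8.57, 10.9 and 9.03 FPKM in WT and 15.1, 28.4 and 13.6 FPKM in cKO libraries (0.92, adjusted p 0.253). The 11 Sertoli cell genes summed to 64.5, 87.7 and 58.0 FPKM in WT and 56.7, 114 and 76.2 FPKM in cKO libraries, and their median of 0.19 became -0.09 without cKO replicate 2. The 8 Leydig cell genes were all above 0 (median 0.39), with sums of 53.8, 109 and 87.5 FPKM in WT and 112, 78.0 and 103 FPKM in cKO libraries, so that cKO replicate 2 was the lowest of the cKO libraries. Macrophage (median -0.07) and T cell genes (-0.01) lay near the median of all genes. None of these lists held a call, and the part of somatic cells in the adhesion, Cyp26b1 and Col15a1 values was not tested.

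**Figure D5:**
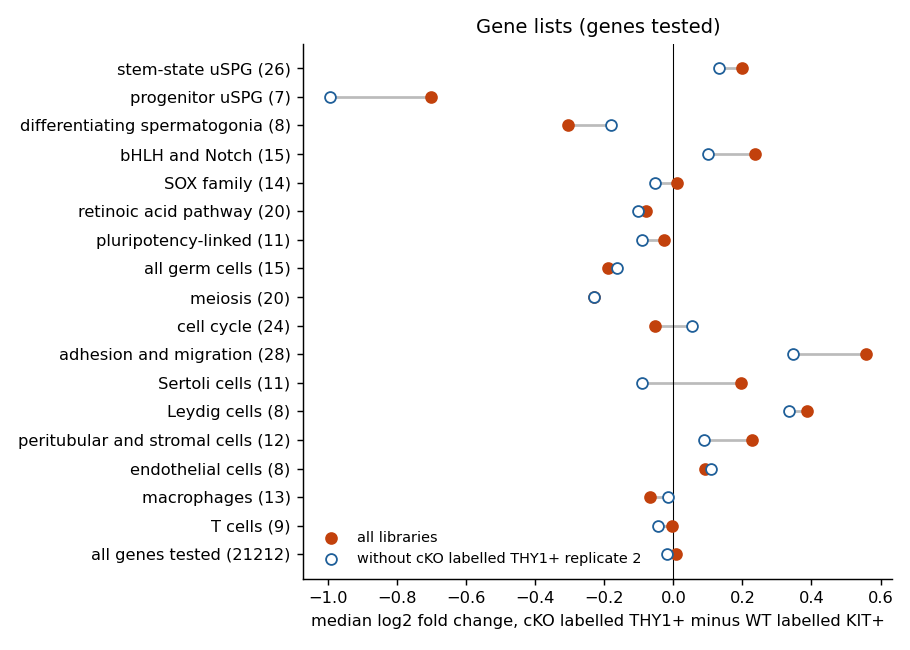
Median log2 fold change (x axis) of 17 gene lists and of all genes tested, with the number of genes tested in parentheses, over all libraries (orange) and without cKO labelled THY1+ replicate 2 (open). The progenitor list, which includes the deleted gene Sox3, lies lowest at -0.70. The adhesion and migration list lies highest at 0.56, which becomes 0.35 without that library.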

How the data were processed

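RNA-seq libraries of sorted mouse spermatogonia were analysed. Per the study's methods, the authors depleted ribosomal RNA, made stranded libraries, aligned single reads to mm10 with Novoalign, allowing several positions per read, and deposited FPKM computed with USeq. Their own test needs counts, so the deposited FPKM were tested with limma 3.58.1 (R 4.3.3) instead. Values were analysed as log2(FPKM + 0.1), which understates changes of low genes. Genes with a mean of at least 0.1 FPKM over the 12 libraries of the Sox3 experiment were fitted with 4 group means (eBayes with trend and robust settings, two-sided, Benjamini-Hochberg adjustment), and a call had an adjusted p of at most 0.05 and at least a 1.5-fold change. The script was tested on simulated data.

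Groups were taken from the GEO labels. Each library came from a pool of 3 mice. The study describes its RNA-seq replicates as independent biological replicates, while the labels do not give separate isolations. The p-values measure the spread between these libraries. Reads were estimated from the steps of low FPKM values with GENCODE M21 exon lengths (GRCm38), where 75.3% to 78.6% of low values came out whole within 0.02 reads in the Sox3 experiment. Read intervals cover counting error only. Deviations from the group means correlated across genes at 0.268, 0.125 and 0.204 for libraries with the same replicate number, and at -0.23 to 0.023 for the other pairs. Deviations from a group mean cancel out within the group, so part of this contrast is built in. Replicate 1 was also sequenced most deeply in every group, so a shared effect of depth cannot be told apart from pairing. The numbers were taken to pair the libraries, a reading from the data, and the blocked fit is given beside the plain one.

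Named genes were Sox3, the sorting markers, genes the study names for Sox3, the protein-coding calls with a mean of at least 1 FPKM in the higher group and no overlap, and members of 17 lists (264 genes). The comparison and lists were chosen with earlier results of these data known. Promoters came from RefSeq. Alternatives were other pseudocounts, filters and scalings, the block, fewer libraries and plain limma settings.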

Additional observations from a re-analysis of the deposited data

How the results depend on the processing

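The comparison gave 15 calls (14 lower, 1 higher in the cKO). The replicate block gave 29 (28 lower), and the block or pairing left the difference between the marker pairs at 0. With no filter, upper quartile scaling, a pseudocount of 0.01 FPKM or limma without trend and robust settings there were 14 to 15 calls, of which 13 to 15 were among the 15. Hoxb13 and Ly6g6e were no calls with 0.01 FPKM, nor was Igfbp2 with upper quartile scaling or without trend and robust settings. A filter at a mean of 1 FPKM gave 9 calls (9 lower, 0 higher), with fewer genes tested. Scaling to an equal sum gave 6 (5 lower, 1 higher) and moved the median log2 fold change of all genes to 0.17. Relative to that shift the germ cell (-0.01), meiosis (-0.05), retinoic acid (0.08), pluripotency-linked (0.15), cell cycle (0.12), macrophage (0.11) and T cell (0.17) medians stayed lower, although the last 5 turned positive. The 6 libraries alone gave 1 call (1 lower, 0 higher). Replicates 2 and 3 alone gave 0 (0 lower, 0 higher) in limma, with 1459 genes at an unadjusted p under 0.05, and Sox3 had an adjusted p of 0.0575. A pseudocount of 1 FPKM gave 16 calls with 2 higher, the second being Gm24095. Only 11 of the 15 were among them, without Gm2832, Hoxb13, Mobp and Igfbp2. It gave 1 call for the difference, Dppa3. With a pseudocount of 0.01 FPKM the calls for the difference were Gm14808, Trbc2 and Xcl1. Leaving out 1 library gave 5 to 9 calls, with 4 to 8 lower and 1 to 2 higher, and 0 to 19 for the difference, of which 19 came without WT labelled THY1+ replicate 1. Without cKO labelled THY1+ replicate 2, an alternative chosen after seeing the data, the Sertoli cell median went from 0.19 to -0.090. The cause of these changes was not tested beyond the fewer libraries or genes named. Depth limited Gm2832, AU015336, Cthrc1, Mobp and Hoxb13, which rested on at most 20 reads per library in both groups (Gm2832 and AU015336) or in the cKO.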
